A study of Homo sapiens with 2 samples.

Results

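The genes of the AP-1 clathrin adaptor and of the mannose phosphate receptors were examined in HEK-293 cells given a miR-204 mimic. The 10 genes were taken by symbol, namely the 8 AP-1 subunit genes AP1S1, AP1S2, AP1S3, AP1G1, AP1G2, AP1M1, AP1M2 and AP1B1 and the receptor genes M6PR and IGF2R, out of 30484 gene names on the array. All 10 are current symbols, and they carry 17 probes, each printed once. HEK-293 is a line of human embryonic kidney origin. One RNA came from cells transfected with miR-204 mimic and the other, the control, from cells transfected with scrambled oligonucleotide, and the labels give 75 nM and 48 h. Both RNAs were hybridized together on a first array, with the control in Cy3 and miR-204 in Cy5, and on a dye-swap array with the dyes exchanged. As no source names a second transfection, the 2 arrays were treated as 1 replicate, which leaves the spread between cultures unmeasured and allows no test of the conditions.

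AP-1 is a complex of a gamma, a beta, a mu and a sigma chain that gathers cargo and clathrin on membranes of the trans-Golgi network and endosomes. The mu and sigma chains bear pockets that recognise short sorting signals in the tails of membrane proteins, and the gamma and beta chains reach clathrin and accessory proteins. Mannose phosphate receptors bind newly made lysosomal enzymes by their sugar tag and are carried between the Golgi and endosomes with the help of AP-1. AP1S1, AP1S2 and M6PR have been reported as targets of the miR-204 family, whose members repress mRNAs that pair with their seed.

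The mimic is described in the labels as miR-204, without its arm. The mature forms are shown because the seed, bases 2 to 8, is the part that pairs with targets. Sequences are those of RefSeq on GRCh38.p14, 5′ to 3′, with the seed in capitals.
hsa-miR-204-5p: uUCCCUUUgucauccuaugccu
hsa-miR-211-5p: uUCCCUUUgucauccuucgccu
hsa-miR-204-3p: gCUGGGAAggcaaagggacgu
Of 2370 mature miRNA names in that table, 2 had the seed UCCCUUU, miR-204-5p and miR-211-5p. On the minus strand, miR-204-5p lies on chromosome 9 from 70810031 to 70810052 and miR-211-5p on chromosome 15 from 31065095 to 31065116. The 3p arm of miR-204, from 70809993 to 70810013, has another seed. The level of miR-204 itself in the transfected cells was not analysed here.

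Ratios below are log2 of miR-204 over control, from processed signals quantile normalized over the 4 channels, with the dye-swap array turned so that a negative value always means less in the miR-204 RNA. A probe was counted when it was well above background on both arrays in at least one of the RNAs and had no outlier flag, which held for 25268 of 41000 probes. Of the member probes, 16 of 17 were counted, and these 16 passed that mark in each of the 4 channels. The exception was the single probe of AP1M2, which encodes the mu chain found mainly in polarised epithelia. It failed that mark in every channel, with signals of 4.52 (control) and 3.96 (miR-204) on the first array and then 2.81 and 5.63 after the dye swap, and no fold is given for it. The 2 arrays differed widely. Taking the 23155 probes that passed in all 4 channels, ratios on one array had a Pearson correlation of -0.08 with those on the other, across probes, which are not independent replicates. Their SD was 0.43 for the first array, against 0.28 for its dye swap. By contrast, over 141 counted probes printed 10 times the median SD between spots of a probe was 0.05 on either array. Among markers of the line, at least 1 probe each of VIM, KRT8, KRT18, NEFL and NEFM passed in each of the 4 channels and that of PAX2 in none. The probes of PTPRC, CD3E and ALB, genes of blood and liver cells, passed in no channel.

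The transcripts of AP1S2, AP1S3 and M6PR were lower in the miR-204 RNA at every probe and on both arrays, by 1.70-fold, 1.59-fold and 1.38-fold in the mean of their probes. For 1 of the AP1S3 probes the ratio on the first array was small, at -0.09. With quantile normalization of the ratios instead of the signals it was 0.007. The means of the other counted members lay nearer 0, and 5 of these 6 genes had opposite signs on the arrays. No member reached 2-fold in the mean of the arrays, the limit passed downwards by 0.518% and upwards by 0.119% of counted probes. At 1.5-fold, 3 of the 16 member probes were lower, both AP1S2 probes and 1 of AP1S3, and 0 were higher, against 2.60% lower and 1.27% higher of all counted probes. Of the 23155 probes that passed in all 4 channels, as these 16 did, 333 (1.44%) were lower by 1.5-fold and 267 higher. Of the 16, 7 were below 0 on both arrays, where 23.3% of counted probes were, 2 were above 0 on both arrays, where 24.2% were, and 7 had opposite signs, where 52.3% had. The median ratio over the 16 probes was -0.14, beside 0.00 over all counted probes. The members were picked with results of these arrays known, so these counts describe the genes and test nothing.

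**Figure D1:**
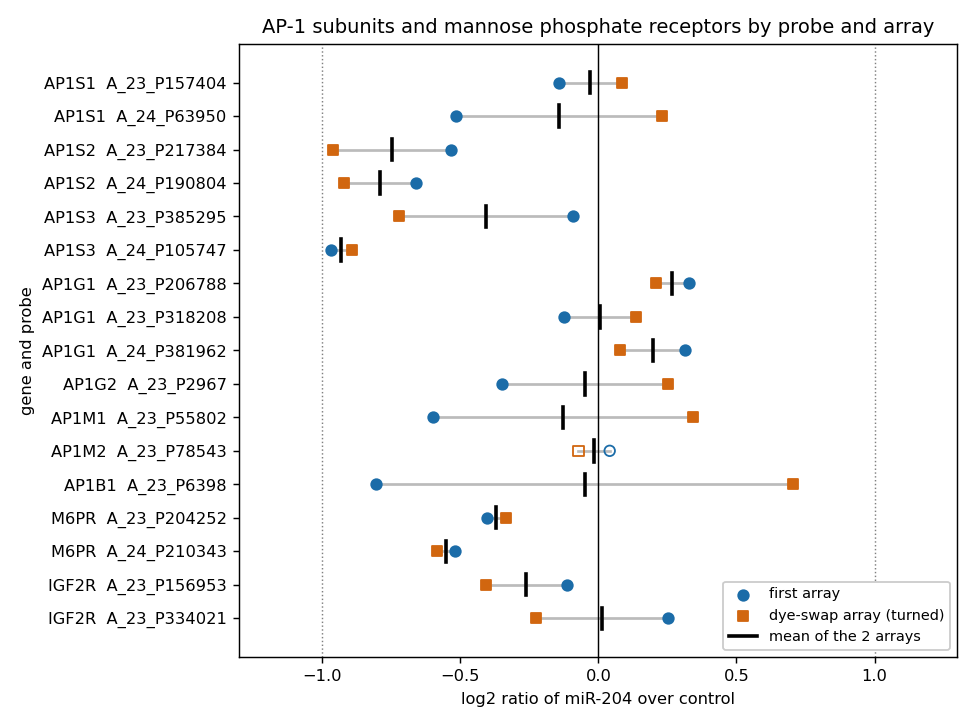
Log2 ratio of miR-204 over control for each of the 17 probes on the first array (circles) and the dye-swap array (squares), with a bar at their mean and dotted lines at 2-fold. Open symbols mark the AP1M2 probe, which was not counted. Both symbols lie left of 0 for every probe of AP1S2, AP1S3 and M6PR, while those of AP1B1 lie far apart on opposite sides.

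Among the AP-1 subunits the lowest means over both arrays were those of the sigma chain genes AP1S2 and AP1S3. On the first array alone AP1B1, at -0.80, was lower than either, and AP1M1, at -0.60, was level with AP1S2. AP1S2 encodes the sigma chain 1B and lies on the X chromosome, where its loss causes intellectual disability. Its probe A_23_P217384, on chromosome X of hg18 from 15754500 to 15754559 on the minus strand, gave a processed signal of 1490 for control and 1025 for miR-204 on the first array, followed by 969 and 499 on the dye-swap array. The control signal was the higher one whichever dye it carried. The ratios were -0.53 and -0.96, with a mean of -0.75 ± 0.30 (SD over the 2 arrays), and 1.44% of counted probes had a mean at or below it. The other AP1S2 probe, A_24_P190804, from 15753905 to 15753964, is separate from the first and read 899 in control and 563 in miR-204 RNA on the first array. On the dye-swap array it read 658 and 347. Its ratios were -0.66 and -0.92, with a mean of -0.79 ± 0.18, at or below which lay 1.20% of counted probes. The 2 AP1S2 probes thus differed by 0.04 in their means, less than either varied between arrays. Averaged over both, AP1S2 had ratios of -0.60 and -0.94 on the first and second array, mean -0.77 ± 0.24.

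AP1S3 encodes the sigma chain 1C, in which variants predispose to pustular psoriasis. Its probe A_24_P105747, on chromosome 2 of hg18 from 224330618 to 224330677 on the minus strand, read 107 in control and 54.2 in miR-204 RNA on the first array, then 80.2 and 43.8 on the dye-swap array. The ratios of -0.97 and -0.89, with a mean of -0.93 ± 0.06, were the lowest mean among the members, with 0.712% of counted probes at or below it. The other AP1S3 probe, A_23_P385295, has its ends at 224346301 and 224348909, 2609 bases apart in the genome although the probe is 60 bases long. It read 140 in control and 131 in miR-204 RNA on the first array, then 83.1 and 51.0 on the dye-swap array. Its ratios were -0.09 and -0.72, with a mean of -0.41 ± 0.45, so that the size of the difference rested on the dye-swap array. The means of the 2 AP1S3 probes differed by 0.52, the widest gap between probes of any member. The AP1S3 signals were low, and with normexp background correction and loess the mean of A_24_P105747 was -0.46, against -0.93 from processed signals. Over both probes AP1S3 had -0.53 and -0.81 on the first and second array, mean -0.67 ± 0.20.

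AP1S1, the sigma chain 1A gene, in which loss of function causes a neurocutaneous syndrome, had no such difference. The probe A_23_P157404, on chromosome 7 of hg18 from 100590782 to 100590841, read 297 in control and 269 in miR-204 RNA on the first array, then 229 and 244 on the dye-swap array. The Cy3 signal was the higher one on both arrays, and the ratios were -0.14 and 0.09, with a mean of -0.03 ± 0.16. The probe A_24_P63950, with its ends at 100587431 and 100589063, read 117 and 81.1 on the first array, then 80.4 and 94.7 on the dye-swap array, control first. Its ratios of -0.51 and 0.23 gave a mean of -0.14 ± 0.53. Of the 3 sigma genes, AP1S1 was therefore the one whose arrays disagreed in sign at both probes, and its gene mean was -0.09 ± 0.34.

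**Figure D2:**
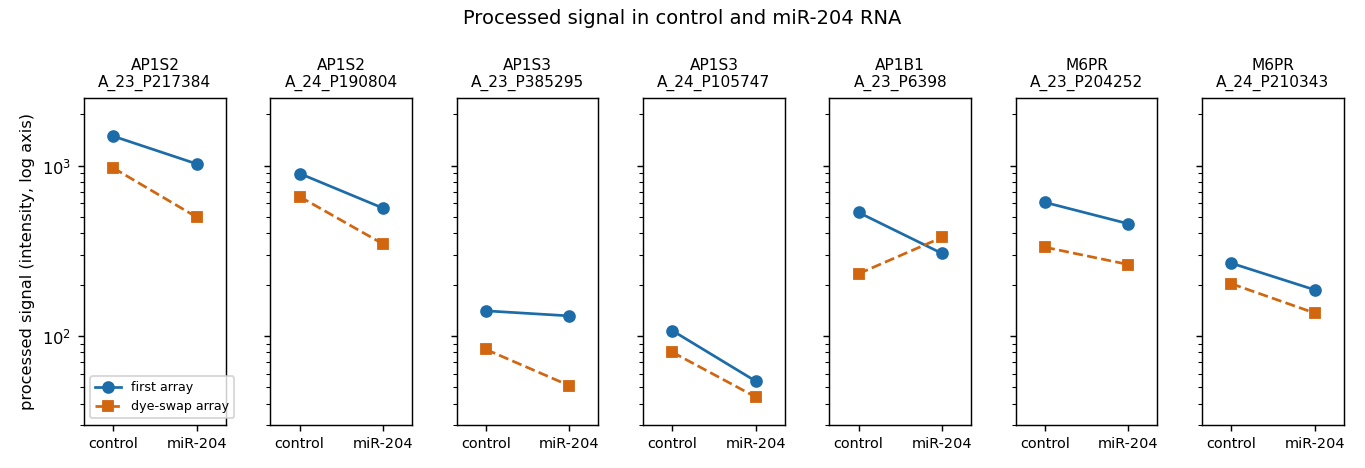
Processed signal (intensity, log axis) in the control and the miR-204 RNA for the probes of AP1S2, AP1S3, AP1B1 and M6PR, with a line for each array. For AP1S2, AP1S3 and M6PR both lines go down to miR-204, whereas for AP1B1 the line of the first array goes down from 531 to 305 and that of the dye-swap array goes up from 232 to 379.

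The gamma chains form one of the large subunits of AP-1 and bind clathrin and accessory proteins through an ear domain. AP1G1, the widely expressed gamma gene, was measured by 3 probes on chromosome 16 of hg18. The probe A_23_P206788, from 70322652 to 70322711, read 227 in control and 287 in miR-204 RNA on the first array, then 186 and 214 on the dye-swap array, giving ratios of 0.33 and 0.21 and a mean of 0.27 ± 0.08. The probe A_24_P381962, from 70320669 to 70320728, read 1453 and 1812, then 1085 and 1149, with ratios of 0.31 and 0.08 and a mean of 0.20 ± 0.17. These were the 2 member probes above 0 on both arrays. The third, A_23_P318208, from 70323736 to 70323795, had ratios of -0.13 and 0.14. AP1G1 was the only member with a positive mean over its counted probes, 0.16 ± 0.02, or 1.11-fold more in the miR-204 RNA. That SD is small because array differences of opposite direction cancel over the probes, whose own SDs ran from 0.08 to 0.18. The means of single AP1G1 probes had between 51.0% and 88.5% of counted probes at or below them, so that they were not at the upper end of the array. AP1G2, the second gamma gene, had 1 probe, A_23_P2967, on chromosome 14 of hg18 from 23099371 to 23099430. It read 489 in control and 379 in miR-204 RNA on the first array, then 357 and 427 on the dye-swap array, and had ratios of -0.35 and 0.25 and a mean of -0.05 ± 0.43.

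The beta and the ubiquitous mu chain gave the strongest movement with the dye. AP1B1 encodes the beta chain, which binds clathrin. Its probe A_23_P6398, on chromosome 22 of hg18 from 28056625 to 28056684, gave a signal of 531 for control and 305 for miR-204 RNA on the first array, then 232 and 379 on the dye-swap array. On each array the Cy3 signal was the higher one, whichever RNA it held. The ratios were -0.80 and 0.71, giving a dye part (the part that flips with the dyes) of -0.75 and a mean of -0.05 ± 1.07. On the first array alone AP1B1 would be counted lower by over 1.5-fold, and on the dye-swap array alone higher. AP1M1, which encodes the mu chain that reads tyrosine-based signals, had 1 probe, A_23_P55802, on chromosome 19 of hg18 from 16206642 to 16206701. It read 2276 in control and 1503 in miR-204 RNA on the first array, then 1282 and 1639 on the dye-swap array. The ratios were -0.60 and 0.34, with a mean of -0.13 ± 0.67 and a dye part of -0.47. In both genes the arrays differed by far more than their mean lay from 0. Over all counted probes the median size of the dye part was 0.16, and over the 16 member probes it was 0.14.

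**Figure D3:**
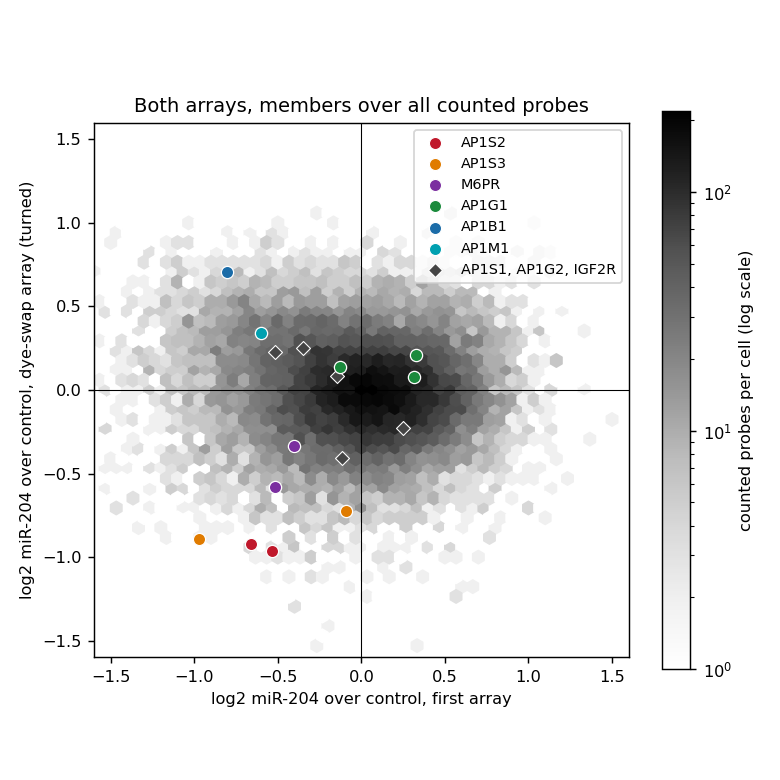
Log2 ratio of miR-204 over control on the first array (x axis) against the dye-swap array, turned (y axis), with all 25268 counted probes as grey cells and the 16 member probes as coloured points (axes end at 1.6 either way). The probes of AP1S2, AP1S3 and M6PR lie to the lower left, those of AP1B1 and AP1M1 in the upper left, where the sign follows the dye, and 2 of the 3 AP1G1 probes in the upper right.

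The receptors differed from each other. M6PR encodes the small, cation-dependent mannose phosphate receptor. Its probe A_24_P210343, on chromosome 12 of hg18 from 8985424 to 8985483 on the minus strand, read 267 in control and 186 in miR-204 RNA on the first array, then 202 and 136 on the dye-swap array. The ratios of -0.52 and -0.58 had a mean of -0.55 ± 0.04, with 3.54% of counted probes at or below it. The second M6PR probe, A_23_P204252, from 8984924 to 8984983, read 608 and 456 on the first array, then 332 and 262 on the dye-swap array. It had ratios of -0.40 and -0.33, a mean of -0.37 ± 0.05, and 8.35% of counted probes at or below that mean. Averaged over both probes, M6PR had -0.46 on each array. The arrays are closer here than for any other member, though the ratio is smaller than those of AP1S2 and AP1S3. That closeness arises in part because small array differences of opposite direction cancel over the probes. The single M6PR probes had SDs of 0.04 and 0.05, beside 0.06 for AP1S3 probe A_24_P105747. With normexp and loess the M6PR ratio was -0.37.

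IGF2R encodes the large, cation-independent receptor, which also binds the growth factor IGF2 and takes it up for degradation. Its probe A_23_P156953, on chromosome 6 of hg18 from 160446186 to 160446245, read 342 in control and 317 in miR-204 RNA on the first array, then 266 and 201 on the dye-swap array. The ratios were -0.11 and -0.41, with a mean of -0.26 ± 0.21. The probe A_23_P334021, from 160447104 to 160447163, read 354 and 420 on the first array, then 245 and 210 on the dye-swap array, and had ratios of 0.25 and -0.23 and a mean of 0.01 ± 0.34. The IGF2R probes differed by 0.27 in their means, and the gene mean of -0.12 ± 0.27 did not lie beyond the difference between arrays.

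In order of their gene means, the counted members ran from AP1S2 at -0.77 through AP1S3 at -0.67 and M6PR at -0.46 to AP1M1 at -0.13, IGF2R at -0.12, AP1S1 at -0.09, AP1B1 and AP1G2 at -0.05 each, and AP1G1 at 0.16. AP1S2 and AP1S3 overlapped between arrays, with -0.60 and -0.94 for the former and -0.53 and -0.81 for the latter, so their order is not settled. M6PR, at -0.46 on both arrays, lay outside the 2 array values of AP1S3, but 1 of the AP1S3 probes, at -0.41, lay between the M6PR probes. From AP1M1 to AP1G2 the array values overlapped throughout. Of the 5 member genes with exactly 2 counted probes, 3 had both probes below 0 on both arrays, where 9.35% of the 3849 such gene names on the array did. The 6 probes of AP1S2, AP1S3 and M6PR had means from -0.93 to -0.37, and the 10 counted probes of the other members had means from -0.26 to 0.27. These 3 genes were set apart because their means were the lowest, so the gap between the ranges follows from that choice. Without background correction, AP1S3 probe A_23_P385295 was at -0.24 and IGF2R probe A_23_P156953 at -0.23.

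**Figure D4:**
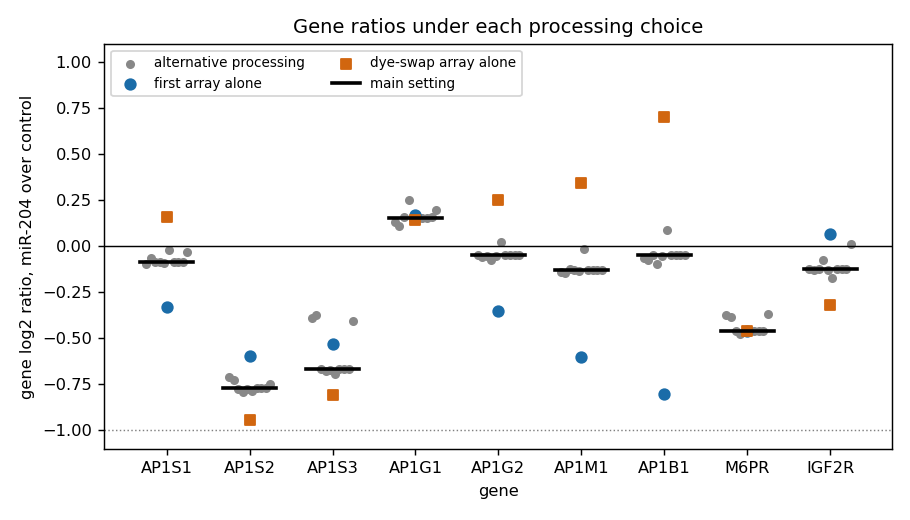
Log2 ratio of each counted gene (mean of its counted probes) in the main setting (bars), under alternative processing (grey), and on the first array (blue circles) or the dye-swap array (orange squares) alone, with a dotted line at 2-fold lower. AP1S2 stays between -0.94 and -0.60, AP1S3 between -0.81 and -0.37 and M6PR between -0.48 and -0.37, whereas AP1B1 spans -0.80 to 0.71.

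The neighbours of AP-1 in the pathway were described with a list of 36 genes for clathrin, GGA adaptors, ARF GTPases and their exchange factors, AP-1 accessory proteins, phosphatidylinositol kinases, enzymes that make the mannose phosphate tag, proteins of retrieval to the Golgi, and the sorted proteins SORT1, SORL1 and FURIN. All 36 had a counted probe, 68 probes in all. Of these probes, 0 were past 2-fold, where 0.518% of all counted probes were lower and 0.119% higher. On both arrays 14 were below 0 and 13 above, beside 23.3% and 24.2% of all counted probes, and the median ratio was -0.03. At 1.5-fold, 1 probe was lower and 0 higher, beside 2.60% and 1.27% of all counted probes. That probe, named after its value was seen, belongs to NAGPA, which uncovers the mannose phosphate tag. It read 36.15 in control and 12.98 in miR-204 RNA on the first array, but 23.67 and 19.23 on the dye-swap array. Most of the gap thus came from the first array. The miR-204 signal of this probe failed the background mark both times. In the mean of the arrays it was at least 1.48-fold lower in that RNA, a bound taken on dye-corrected channels after Aquantile normalization and open to dye bias. The other NAGPA probe had ratios of -0.06 and 0.05. The 8 counted probes of AP-2, the adaptor of the plasma membrane, had a median of -0.22, the 14 of AP-3, which serves lysosome-related organelles, 0.03, and the 4 of AP-4 0.27. None of these 3 lists had a probe past 2-fold or lower by 1.5-fold, and 1 probe, of AP3B2, was higher by 1.5-fold. Among probes of these lists well above background in all 4 channels, the lowest were 1 of AP2B1, with -0.89 and -0.04, 1 of ARF3, with -0.95 and 0.06, and 1 of GGA2, with -1.16 and 0.39, so that each of these means rested on the first array. The highest were AP3B2, a neuronal AP-3 beta chain, with 0.31 and 1.27, a GNPTAB probe, for the enzyme that begins the tag, with 0.58 and 0.48, and an AP3B1 probe, with 0.88 and -0.14. The clathrin chain genes CLTA and CLTC had means of -0.08 and 0.08, and the counted CLTB probe -0.01. The members and these lists share the same 2 arrays, and no difference between them was tested.

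**Figure D5:**
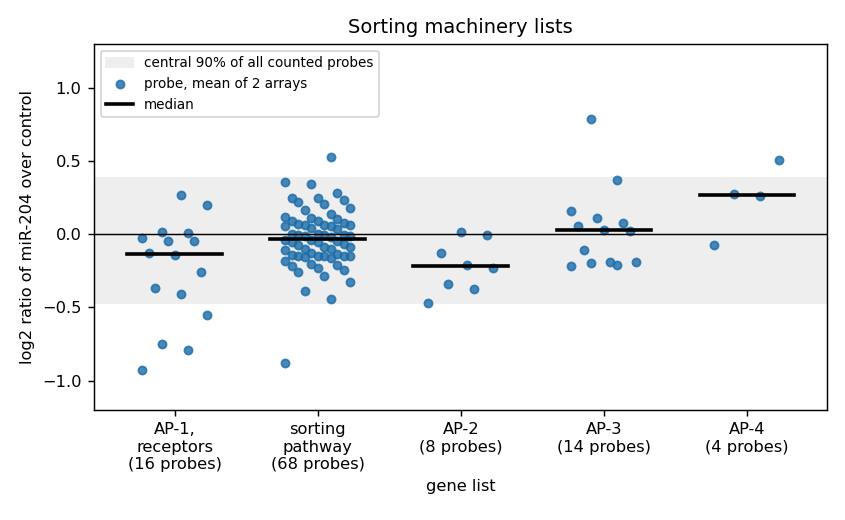
Mean log2 ratio over the 2 arrays for each counted probe (points) of AP-1 and the receptors, the sorting pathway and the AP-2, AP-3 and AP-4 complexes, with the median of each list (bars) and the central 90% of all counted probes (grey band, -0.47 to 0.39). The points below the band in the first column are both AP1S2 probes, 1 of AP1S3 and 1 of M6PR.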

How the data were processed

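Signals were measured on 2-colour Agilent whole genome arrays carrying 60-base probes. The authors extracted intensity values with Feature Extraction 9.5.3.1, which corrected the deposited processed signals for background and dye. The deposited mean and local background intensities are uncorrected. A series table deposited by the authors gives quantile-normalized log2 ratios of miR-204 over control. Probe coordinates were taken from the files (hg18). The number of arrays limits the precision.

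Here, control spots and the 128 probes flagged as outliers were dropped, and saturated spots were kept. A probe printed several times counted as well above background only if all its spots were. Log2 processed signals were quantile normalized over the 4 channels with limma 3.58.1 in R 4.3.3, spots of a probe and then the arrays averaged, and a call required a mean past 2-fold with the same sign on both arrays. Gene values are means over counted probes. SDs are over the 2 arrays, which are 1 replicate, and so are technical. Of the 30484 gene names, 14334 were current RefSeq symbols, 3029 older ones, 518 were found only through an accession and 12603 were kept unmatched. The steps were tested on simulated data with changes larger than that of any member and without a dye effect. That test does not cover smaller changes or dye bias. The members and lists were chosen with earlier results of these data known. All members are named, with the lowest 3 and highest 3 probes of the other lists. Alternatives changed the background correction, normalization, values, filter, flags, arrays, threshold, test and gene summary. One marker gene of another cell type is not reported here.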

Additional observations from a re-analysis of the deposited data

How the results depend on the processing

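Of 12 alternatives, AP1S2, AP1S3, M6PR and AP1G1 kept their sign in all, and no gene passed 2-fold in any. AP1S1 and AP1M1 kept it in 11, and AP1G2, AP1B1 and IGF2R in 10. These signs are of gene means. With quantile normalization of the ratios, AP1S3 probe A_23_P385295 was at 0.007 on the first array, against -0.09 in the main setting. Without one array or the other, the median ratio of the members was -0.38 to -0.073, and that of the sorting pathway -0.07 to 0.06. The member probes below 0 were 8 to 13 of 16, against 7 on both arrays. Those lower by 1.5-fold were 4 either way, and those higher by 1.5-fold 0 to 1, the 1 being AP1B1. The 4 lower probes were not the same ones. The first array gave 1 probe of AP1S2, 1 of AP1S3 and those of AP1M1 and AP1B1. The dye-swap array gave both probes of AP1S2 and both of AP1S3. On the first array alone the median was -0.38 and 13 probes were below 0, where 48.2% of all counted probes were. Of all counted probes, 10.1% were lower by 1.5-fold on that array. On the dye-swap array alone 8 member probes were below 0, beside 50.8% of all counted probes, and 3.72% of all counted probes were lower by 1.5-fold. Lowering the limit from 2-fold to 1.5-fold gave 3 lower member probes in place of 0. With normexp and loess, or without background correction, 2 were lower by 1.5-fold, both of AP1S2, while AP1S3 was -0.39 and -0.37 under these settings, against -0.67, and -0.41 by its brightest probe. The share of all counted probes lower by 1.5-fold went from 2.60% to 0.522% and 0.55% under the same 2 settings, and the probes past 2-fold from 131 lower and 30 higher to 7 lower and 2 higher under each. These were 401 and 248 without the filter on dim probes, and 30 and 17 when all 4 channels had to pass. The cause was not tested. With the methods' t-test 3 of the 16 member probes, and with limma 4, were under 0.05 unadjusted, beside 1622 and 1192 of all counted probes, and 0 were so after Benjamini-Hochberg adjustment of either. These tests run over arrays that are 1 replicate and do not compare the conditions. Low signal limits AP1M2 and, in part, AP1S3. The ratios and limma pair the RNAs within each array, whereas the t-test took the 4 channels as unpaired. Pairing over cultures was not possible because both arrays belong to a single replicate.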
